A study of Mus musculus with 24 samples.

Results

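MHC class I and class II presentation genes were followed as a set of 10 members, chosen by name for their textbook roles, with earlier results of these data known, out of the 37991 genes in the table. The 5 class I members were B2m, H2-K1, H2-D1, Tap1 and Psmb8, and the 5 class II members were H2-Aa, H2-Ab1, H2-Eb1, Cd74 and Ciita. The table held 11 entries under these 10 symbols, because Ciita had a second entry (ENSMUSG00000075404, 202 counts over all samples) that was set aside for ENSMUSG00000022504 with 3271 counts. All 10 members passed the filter on low counts, a CPM (library-scaled count) no lower than 1 in 12 or more of the 24 samples, which left 14918 genes to test.

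RNA came from the mammary glands or mammary tumors of female FVB mice. PyMT mice carry the polyoma middle T antigen under the MMTV promoter, which restricts it to the mammary epithelium, and the FVB controls lack the transgene. Each genotype had 3 samples at each of weeks 6, 8, 10 and 12, and in PyMT these ages stand for hyperplasia, for adenoma/MIN and for the early and the late carcinoma. The tissue was not sorted, so cells other than epithelium can contribute to a sample, and the carcinoma samples were described by histology as mostly tumor cells. The 6 skeletal muscle markers summed to 0 to 27781 normalized counts in PyMT samples (median 219.5) and to 78.4 to 495284 in FVB samples (median 800). The early carcinoma sample of PyMT week 10 replicate 3 had 1425 CPM of the muscle gene Myh4.

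MHC class I molecules are found on nearly all nucleated cells and display peptides of the cell's own proteins to CD8 T cells. Peptides cut by the proteasome, of which Psmb8 is an inducible catalytic subunit of the immunoproteasome, are carried by the transporter Tap1 with Tap2 into the endoplasmic reticulum and bound there by a heavy chain, H2-K1 or H2-D1, with the light chain B2m. MHC class II molecules, of an alpha chain such as H2-Aa and a beta chain such as H2-Ab1 or H2-Eb1, display ingested protein to CD4 T cells, mainly on dendritic cells, macrophages and B cells. Cd74 is the invariant chain that holds the class II groove until loading, and Ciita is the co-activator on which class II transcription depends. Interferon gamma is known to raise both sets of genes.

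On mm9, with the GENCODE M1 gene models, 7 of the 10 members lay in the MHC region of chromosome 17. H2-K1 lay at chr17:34132962-34137278 on the minus strand and H2-D1 at chr17:35399675-35404444 on the plus strand. Tap1 (chr17:34324498-34334170) and Psmb8 (chr17:34334666-34338399) were neighbours on the plus strand. H2-Ab1 (chr17:34400154-34406363, plus) and H2-Aa (chr17:34406276-34424772, minus) shared 88 bases of their spans on opposite strands, and H2-Eb1 followed at chr17:34442828-34453144. B2m lay on chromosome 2 (121973422 to 121978819, plus strand) and Ciita on chromosome 16 (10480237 to 10527657). The libraries were directional, but the strand setting of the counting is not given in the sources used here, so reads of the shared H2-Ab1 and H2-Aa bases cannot be assigned with certainty. B2m shared 5398 bases of its span with Patl2, and Psmb8 shared 2140 with Gm20496, both on opposite strands, so the same applies there. Patl2 had 16 counts over all samples and Gm20496 had 53. H2-K1 and H2-D1 have close copies among the H2-Q and H2-T genes, and FVB mice carry another MHC haplotype than the C57BL/6 reference; both genotypes are FVB, and the effect on the counts was not tested.

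Promoter sequences are shown because MHC promoters are known for a module of an X box and a Y box a fixed distance apart. RefSeq windows (GRCm38.p6) were at hand for 7 members, and those of H2-Ab1, Cd74 and Ciita were not analysed here. The last 150 bases before the start, from the first listed window where H2-K1 has 2, are printed 5′ to 3′ along the gene for 5 members, with 2 motifs in capitals where they matched on either strand. These were TGACG, the core of the X2 box, and ATTGG, the Y box (CCAAT on the other strand), and where matches overlap their capitals run together, as in H2-Aa.
B2m, chr2:122147537-122147686, plus strand: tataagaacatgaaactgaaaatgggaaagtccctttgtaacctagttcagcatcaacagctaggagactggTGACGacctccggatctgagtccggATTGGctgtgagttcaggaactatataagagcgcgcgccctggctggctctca
H2-K1, chr17:34000348-34000497, minus strand: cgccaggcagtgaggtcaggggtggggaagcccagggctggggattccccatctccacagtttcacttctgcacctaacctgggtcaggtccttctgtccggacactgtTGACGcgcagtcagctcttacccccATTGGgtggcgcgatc
H2-D1, chr17:35262944-35263093, plus strand: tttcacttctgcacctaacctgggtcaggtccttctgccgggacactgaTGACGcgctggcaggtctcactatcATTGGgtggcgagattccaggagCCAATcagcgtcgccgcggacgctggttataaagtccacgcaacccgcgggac
H2-Aa, chr17:34287824-34287973, minus strand: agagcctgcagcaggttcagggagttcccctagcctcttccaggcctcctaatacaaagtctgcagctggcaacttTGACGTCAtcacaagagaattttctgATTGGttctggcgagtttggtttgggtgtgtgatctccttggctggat
H2-Eb1, chr17:34305717-34305866, plus strand: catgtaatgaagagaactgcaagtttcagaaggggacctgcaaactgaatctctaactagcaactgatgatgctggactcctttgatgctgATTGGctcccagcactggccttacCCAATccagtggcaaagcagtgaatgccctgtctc
In B2m, H2-K1 and H2-D1 the TGACG was followed by ATTGG after 20 bases, and in H2-Aa after 21 bases. H2-Eb1 held ATTGG on both strands and no TGACG, Tap1 held both motifs out of this order, and Psmb8 held neither. Over the 250 bases before the start, TGACG occurred in 17.8% and ATTGG in 33.8% of the 32851 promoter windows of the table, and TGACG followed by ATTGG within 10 to 30 bases in 0.642%. The pair was thus in 4 of the 7 member windows searched. A match is a description of the letters and not of binding, and a relation of the motifs to the levels of the genes was not tested.

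Total counts ran from 6969375 to 13516601 per sample with a median of 8280269.5. In 13 of the 24 libraries the smoothed number of genes by count rose to a peak at 8 to 25 counts. That position is taken as the packet size, as if counts came in packets that carry less information than their size. Whether they did was not tested. Adipocyte markers were lower in PyMT over the 4 weeks for 7 of 7 genes and endothelial markers for 6 of 6. So were 6 of 6 skeletal muscle markers (median log2 fold change -4.75) and 3 of 6 basal epithelial markers. Of the 6 luminal epithelial markers 5 were higher and 1 was lower. These calls need an adjusted p under 0.05 (edgeR), at which 27.5% of all tested genes were lower and 23.6% higher. In 7 libraries, 3 of PyMT and 4 of FVB, the muscle gene Myh4 exceeded 1000 CPM, at 1097 to 1947 CPM in these PyMT libraries and 6730 to 20060 CPM in these FVB libraries. In these whole-tissue samples fewer cells of a type and less RNA per cell cannot be told apart, and the part of this shift in tissue makeup in the results was not tested. One library stood apart for the class I members, the PyMT sample of week 8 replicate 2 with a packet size of 23. The fits of the class I members over the 4 weeks, and of B2m at week 8, are given with and without it. Other results include it unless stated.

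B2m and H2-D1 were lower in PyMT than in FVB mammary tissue at weeks 6, 10 and 12, and H2-K1 was lower at week 10. At week 6, 2 of the 10 members were called lower (adjusted p under 0.05 by edgeR's quasi-likelihood test and a fold change above 2), against 6.46% of all tested genes. At week 8 none was called, against 6.37% of all genes. At week 10 there were 3 of 10, against 9.09%, and at week 12 there were 2 of 10, against 13.0%. Each member called at any week was B2m, H2-K1 or H2-D1. Each week rests on 3 samples a genotype. The share of all tested genes without overlap between the genotypes in a week was not counted. A lack of overlap below is therefore a description only.

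B2m, the light chain that all classical class I molecules need, showed the largest difference of the called members. Its normalized counts (counts over DESeq2 size factors) at week 6 were 1233, 1186 and 1555 in PyMT against 4246, 4458 and 4848 in FVB. At week 10 they were 1040.1, 808 and 1001 against 6241, 6268 and 6973, and at week 12 they were 1334, 1105 and 1406 against 6948, 4499 and 9102. All 9 PyMT samples of these weeks lay below all 9 FVB samples. At week 8 the PyMT samples had 1318, 6067 and 923 against 6113, 6146 and 4442 in FVB, so that replicate 2 lay inside the FVB range. For B2m the log2 fold change of week 6 was -1.77 ± 0.20 (SE, adjusted p = 0.00215), that of week 10 was -2.72 ± 0.21 (adjusted p = 0.000234) and that of week 12 was -2.37 ± 0.28 (adjusted p = 0.00072). At week 8 it was -1.03 ± 0.63 (adjusted p = 0.337), and -2.28 ± 0.29 (adjusted p = 0.0098) without PyMT replicate 2.

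H2-D1, a classical heavy chain, was lower at the same weeks. It was at 3824, 3348 and 4192 in PyMT against 8771, 6882 and 7789 in FVB at week 6, and at 3424, 3123 and 3166 against 10285, 9766 and 9538 at week 10. At week 12 the values were 3363, 3561 and 4867 against 11623, 7476 and 13592. The genotypes did not overlap at these 3 weeks. At week 8 PyMT had 3696, 10785 and 3318 and FVB 9330.4, 8836 and 8360.2, and the PyMT sample of replicate 2 was the highest of the 6. For H2-D1 the log2 fold change of week 6 was -1.05 ± 0.21 (adjusted p = 0.0163), that of week 10 was -1.56 ± 0.18 (adjusted p = 0.00133) and that of week 12 was -1.42 ± 0.27 (adjusted p = 0.00618). The value of week 6 sat at the limit of a 2-fold change, and the call was lost in 5 of the 6 fits that left out 1 sample, where the log2 fold change ran from -1.13 to -0.91; only without FVB replicate 2 did it remain.

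H2-K1, the other classical heavy chain here, had 1574, 1930.4 and 1854 in PyMT against 4277, 3107 and 2836 in FVB at week 6. At week 10 it had 1594, 1573 and 1475 against 3486, 3371 and 5318. Neither week had an overlap. At week 12 the PyMT value of replicate 3, 2892, lay above the FVB value of replicate 2, 2725, and the other PyMT samples were at 1496 and 1613 with FVB at 4704 and 3496. The log2 fold change of H2-K1 was -1.34 ± 0.22 (adjusted p = 0.00619) at week 10, the only week at which it was called. It was -0.94 ± 0.22 (adjusted p = 0.0297) at week 6, short of a 2-fold change, and -0.81 (adjusted p = 0.0871) at week 12. Without PyMT replicate 3 of week 12 it was -1.19 (adjusted p = 0.029), and without FVB replicate 2 it was -1.03 (adjusted p = 0.045), both called.

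Tap1 and Psmb8, which deliver and make the peptides, were not called at any week. Tap1 had 212, 95.9 and 252 in PyMT against 385, 305 and 429 in FVB at week 6, and 341, 268 and 324 against 551, 385 and 496 at week 10. Psmb8 had 247, 203 and 203 against 313, 338 and 299 at week 6. At week 10 it had 229, 252 and 256 against 497, 257 and 274. PyMT lay below FVB without overlap for both genes at weeks 6 and 10 and overlapped FVB at weeks 8 and 12. For Psmb8 at week 10 this rested on the scaling, since in RPKM (TMM-scaled CPM per kilobase of exons) PyMT replicate 3, at 11.2, lay above FVB replicate 2, at 10.8. Such a lack of overlap was not counted over the 14918 tested genes. Of these, 3986 at week 6 and 4552 at week 10 had an unadjusted p under 0.05 (edgeR). The log2 fold change of Tap1 was -0.99 (adjusted p = 0.140) at week 6.

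**Figure D1:**
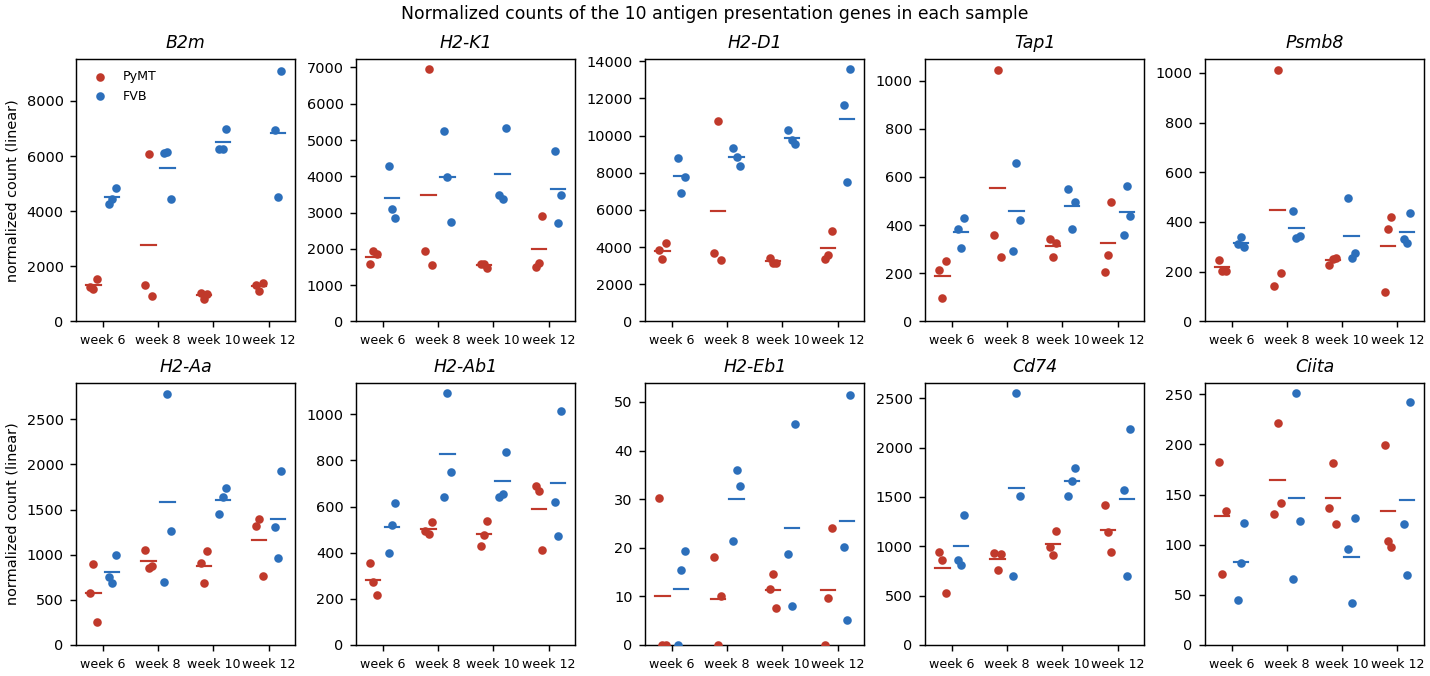
Normalized counts (linear axis from 0, own scale per gene) of the 10 members in each of the 24 samples by week, with PyMT in red, FVB in blue and the mean of 3 samples as a line. PyMT lies below FVB for B2m and H2-D1 at weeks 6, 10 and 12, and a single PyMT sample of week 8 stands high for all 5 class I genes.

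With the 4 weeks fitted together, week as a factor and 12 samples a genotype, 6 of the 10 members were lower in PyMT at an adjusted p under 0.05, with no limit on the fold, against 27.5% of all tested genes, and 0 of 10 were higher against 23.6%. The 10 members had a median log2 fold change of -0.59, and the tested genes as a whole one of -0.03. This fit uses the same samples as the weekly comparisons. B2m had a log2 fold change of -1.99 ± 0.25 (adjusted p = 4.25e-07), H2-D1 of -1.17 ± 0.17 (adjusted p = 2.71e-06) and H2-K1 of -0.84 ± 0.21 (adjusted p = 0.00156). Without the PyMT library of week 8 replicate 2, B2m, H2-D1 and H2-K1 were at -2.28, -1.32 and -1.05, and Tap1 (-0.62, adjusted p = 0.00586) and Psmb8 (-0.53, adjusted p = 0.0167) were called too, in place of -0.44 (adjusted p = 0.106) and -0.25 (adjusted p = 0.424) with all samples. Without the 7 libraries above 1000 CPM of Myh4, a choice made after seeing the data, H2-K1 was at -0.58 (adjusted p = 0.0713) and no longer called.

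Of the class II members, H2-Aa, H2-Ab1 and Cd74 were lower in PyMT over the 4 weeks, by less than a 2-fold change. H2-Ab1, a beta chain, had 353, 273 and 217 normalized counts in PyMT against 399, 521 and 615 in FVB at week 6. It had 495, 481 and 533 against 639.6, 1093 and 749 at week 8, and 427, 477 and 536 against 643, 655 and 837 at week 10. These 3 weeks had no overlap, and at week 12 the values of 689, 669 and 413 in PyMT overlapped those of 622, 471 and 1014 in FVB. Over the 4 weeks H2-Ab1 had a log2 fold change of -0.58 ± 0.14 (adjusted p = 0.000864). The alpha chain H2-Aa had -0.59 ± 0.20 (adjusted p = 0.0145) and the invariant chain Cd74 -0.55 ± 0.18 (adjusted p = 0.0122). All 3 calls were lost when library size alone set the scale. There the median over the tested genes moved from -0.03 to 0.26, H2-Aa was at -0.31 (adjusted p = 0.216), H2-Ab1 at -0.30 (adjusted p = 0.105) and Cd74 at -0.27 (adjusted p = 0.247).

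Single weeks gave no class II call with the fold limit of 2. At week 10 H2-Aa had 910.2, 682 and 1039.8 in PyMT against 1446, 1643 and 1743 in FVB, a log2 fold change of -0.82 (adjusted p = 0.0338). At the same week Cd74 had 993, 913 and 1160.0 against 1509, 1665 and 1798, with -0.64 (adjusted p = 0.0443). Both passed the adjusted p and not the fold limit. At week 8 the FVB sample of replicate 2 had 2779.6 of H2-Aa, 2557 of Cd74 and 251 of Ciita, and that of replicate 1 had 703, 704 and 65.6, so that these 3 genes were high and low in the same control libraries. Without FVB replicate 1 of week 8, Cd74 was called at that week (-1.18, adjusted p = 0.0266).

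Ciita, the co-activator of the class II genes, had the only positive value of the 10 members over the 4 weeks, which was not called. Its mean normalized count was higher in PyMT at weeks 6, 8 and 10 and lower at week 12, at 133.7 against 144.4, with an overlap at each week. Its normalized counts had a PyMT range of 70.9 to 221 with a median of 135, and an FVB range of 42.1 to 251 with a median of 108. The log2 fold change over the 4 weeks was 0.37 ± 0.27 (adjusted p = 0.257), and 0.66 (adjusted p = 0.047) with library size only. H2-Eb1 was close to the limit of detection, with 389 counts over all samples, 0 counts in 4 of 12 PyMT and 1 of 12 FVB samples, and a highest normalized count of 51.4. Its log2 fold change of -1.01 ± 0.80 (adjusted p = 0.307) was too imprecise to call.

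**Figure D2:**
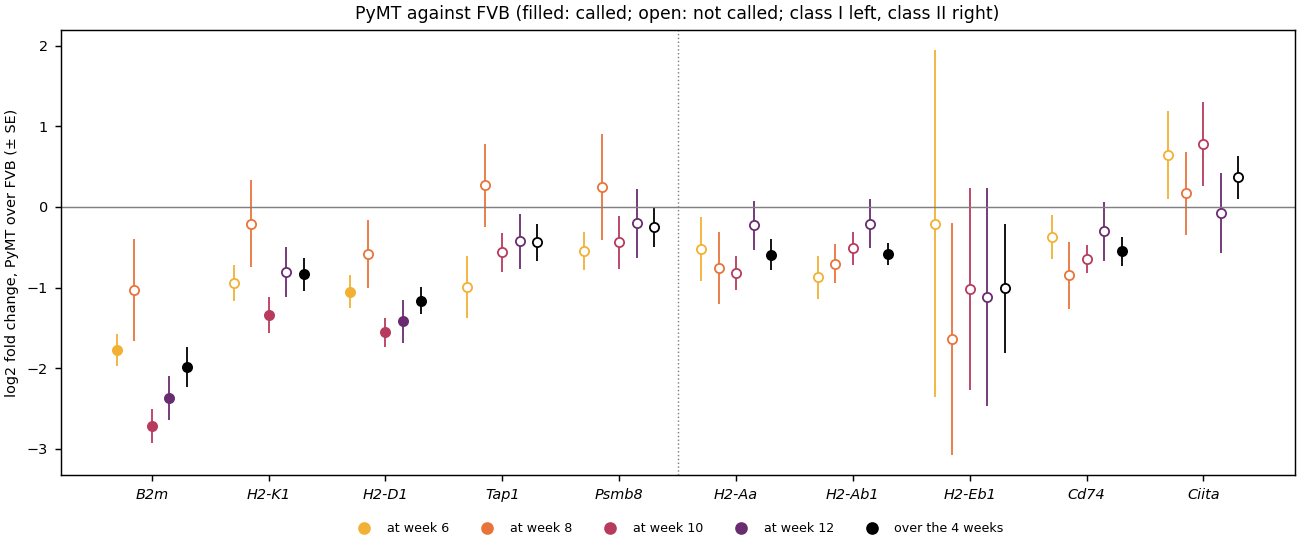
Log2 fold change of PyMT over FVB (y axis, ± SE) for each member (x axis) at each week and over the 4 weeks, with filled points for called genes, which need a 2-fold change at single weeks and only an adjusted p under 0.05 over the 4 weeks. B2m has the lowest called values, down to -2.72 at week 10, and of the class II genes H2-Aa, H2-Ab1 and Cd74 are called over the 4 weeks, H2-Eb1 and Ciita in none of the plotted comparisons, and none at a single week.

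No change of the genotype difference with age was found for any member. In the test of the difference at week 12 against that at week 6, 0 of the 10 members and 0% of all tested genes were called (691 genes had an unadjusted p under 0.05, edgeR; DESeq2 called no member). Between weeks 8 and 10, 0 members and 0.00670% of all genes, 1 gene, were called, with 533 genes at an unadjusted p under 0.05 and no member called by DESeq2. B2m had the lowest unadjusted p of the members there, with a change of -1.71 ± 0.60 (adjusted p = 1.00) that was -0.46 ± 0.33 without the PyMT library of week 8 replicate 2. Within a genotype, week 12 against week 6 gave 0 of 10 members and 0% of all genes in PyMT (1004 genes with an unadjusted p under 0.05) and likewise 0 and 0% in FVB (625 genes; no member by DESeq2). H2-Ab1 in PyMT had the lowest unadjusted p of these, with a log2 fold change of 1.08 ± 0.27 (adjusted p = 0.193), and DESeq2 called it (adjusted p = 0.0404).

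The PyMT library of week 8 replicate 2 was the highest of the 12 PyMT samples for all 5 class I members, with each above 2-fold over the median of the other 11. B2m had 6067 normalized counts there against a median of 1186 and a range of 808 to 1555 in the others. H2-K1 had 6957 against a median of 1594 (range 1475 to 2892), and H2-D1 had 10785 against 3424 (range 3123 to 4867). Tap1 had 1042 against 268 and Psmb8 1011 against 229. In this order the values were 5.11-fold, 4.36-fold, 3.15-fold, 3.87-fold and 4.41-fold the median of the others, and a single sample allows no test.

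The class II members did not share this. H2-Aa had 854 normalized counts in that library against a median of 896 in the other 11, H2-Ab1 481 against 477 and Cd74 759 against 945, with H2-Eb1 at 0. Ciita, at 221 against 133.9, was the highest of the 12 by 1.65-fold. Of all tested genes 15.5% were highest in that library and 5.07% were both highest and above 2-fold. Of the 21 tested genes in the list of the class I pathway, 12 were highest there and 7 of these exceeded 2-fold. Nlrc5, the class I counterpart of Ciita, had 597 against 99.7, the non-classical H2-Q6 had 362 against 23.5 and H2-T10 had 428 against 98.0. Of the 16 tested genes of the class II pathway list 4 were highest there and 3 of these exceeded 2-fold. These were H2-DMa and H2-DMb2, chains of the class II peptide exchange factor, with 125 against 54.7 and 137 against 36.3, and Rfxank, a subunit of RFX, with 335 against 109. Of the 11 of the interferon gamma list 5 were highest and 3 of these exceeded 2-fold, among them the GTPase Gbp2 with 696 against 228.

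Beside this, the summed normalized counts of 4 leukocyte markers were 1330.5 in that library, the highest of the 12 PyMT samples, whose lowest was 562 and median 900.4. The 9 dendritic cell markers summed to 517, also the highest, against a median of 337. The 6 luminal epithelial markers summed to 34140.0, also the highest, against a median of 21239. The 7 adipocyte markers (927) and the 6 endothelial markers (659) were at their lowest, and the 10 macrophage markers, at 4019, were near the median of 3924. The T cell markers summed to 146 with a range of 0 to 159 in PyMT. Their part in the class I values was not tested.

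**Figure D3:**
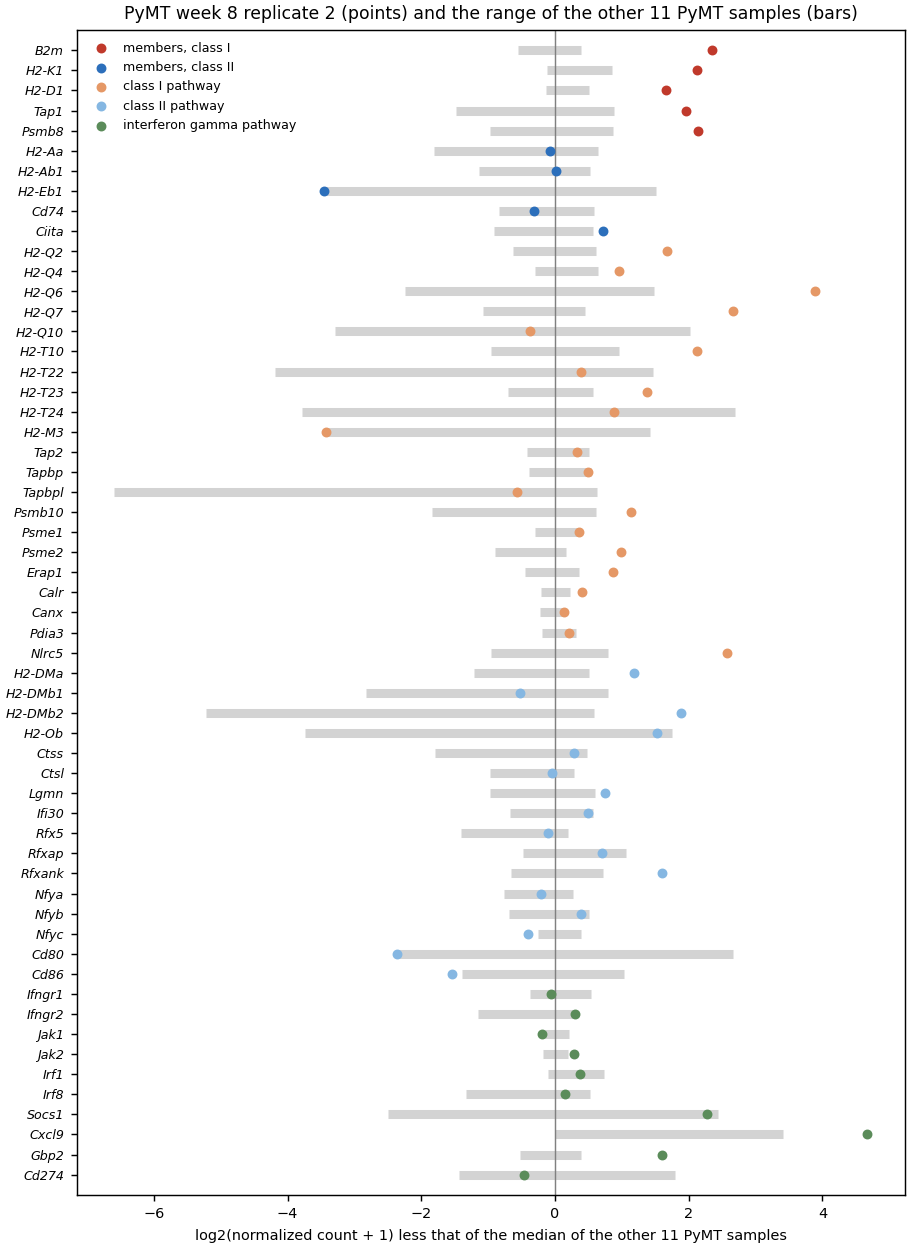
Difference on the log2(normalized count + 1) scale between the PyMT sample of week 8 replicate 2 (points) and the median of the other 11 PyMT samples (0 on the x axis), with the range of the other 11 as grey bars, for members and most listed pathway genes (y axis). All 5 class I members lie above their bars, with a median difference of 2.12 from the median of the others, and of the class II members only Ciita lies above its bar.

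Other genes of the class I pathway did not move as a block. Of 23 listed genes 21 were tested, and over the 4 weeks 4 were higher and 7 lower in PyMT, with a median log2 fold change of -0.36. As shares of the list, these counts were near the 23.6% higher and 27.5% lower of all tested genes. The 4 that were higher were 3 chaperones of the endoplasmic reticulum, Pdia3 (0.85, adjusted p = 6.18e-10), Canx (0.64, adjusted p = 1.55e-08) and Calr (0.94, adjusted p = 2.54e-08), and H2-Q2 (1.56, adjusted p = 0.00114). These chaperones also fold many other glycoproteins. H2-Q2 had a second entry with 788 counts over all samples, which was set aside for the one used, with 1744. The 7 that were lower included Nlrc5 (-1.71, adjusted p = 3.69e-05), the co-activator of class I genes, and Tap2 (-0.52, adjusted p = 0.000193), the partner of Tap1. Psmb9, the immunoproteasome subunit encoded beside Tap1, was listed at 0 in all 24 samples under both of its entries, whose spans overlap each other and 200 and 212 bases of Tap1.

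Of 20 listed genes of the class II pathway 16 were tested, of which 4 were higher and 1 lower in PyMT, with a median log2 fold change of -0.01. The number higher was near the share of 23.6% of all tested genes, and 27.5% of all were lower. Cathepsin S (Ctss), the protease that trims the invariant chain, was higher with 1.44 ± 0.28 (adjusted p = 0.000143), and the thiol reductase Ifi30 with 0.72 ± 0.15 (adjusted p = 0.000305). The other two higher genes were Nfyc (0.54, adjusted p = 0.000211) and Nfya (0.33, adjusted p = 0.0347), subunits of the factor that binds the Y box in many promoters. Cathepsin L (Ctsl) was lower (-0.43, adjusted p = 0.0074), and Rfxap, a subunit of the X box factor RFX, was not called (0.61, adjusted p = 0.0619).

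Of 13 listed genes of the interferon gamma pathway 11 were tested, and 8 were lower and 0 higher in PyMT, against 27.5% and 23.6% of all tested genes, with a median log2 fold change of -0.62. They ran from the receptor chain Ifngr1 (-1.22, adjusted p = 1.08e-08) and the kinase Jak2 (-0.44, adjusted p = 0.00041) to targets of the pathway, Irf1 (-0.47, adjusted p = 0.00108), Gbp2 (-1.33, adjusted p = 1.17e-06), Cd274 (-2.51, adjusted p = 6.27e-06) and the chemokine Cxcl9 (-4.76, adjusted p = 2.97e-06). Cxcl9 had a highest normalized count of 24.4 in PyMT, and in FVB it ran from 43.8 to 288. The cytokine itself, Ifng, had 0 counts in all 12 PyMT samples and in 11 of 12 FVB samples. Of the 3 catalytic subunits of the constitutive proteasome, Psmb6 was higher in PyMT (0.46, adjusted p = 0.00198) and Psmb7 (0.30, adjusted p = 0.0596) and Psmb5 (0.04, adjusted p = 0.848) were not called.

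**Figure D4:**
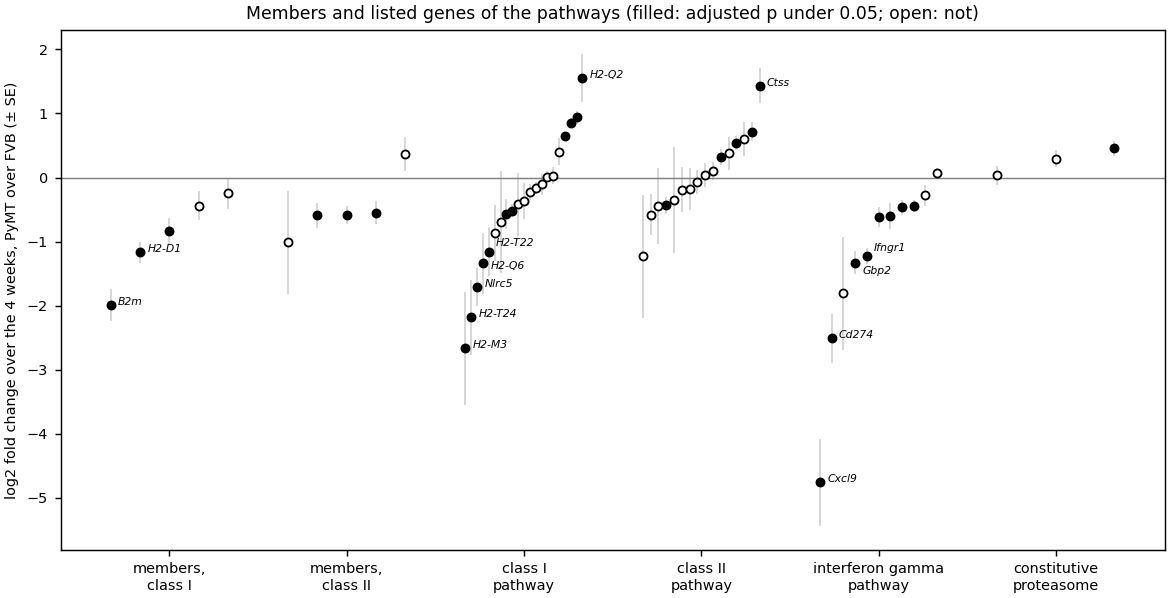
Log2 fold change over the 4 weeks of PyMT over FVB (y axis, ± SE) for the members and for the tested genes of each list (x axis), sorted within a list, with filled points at an adjusted p under 0.05. The interferon gamma list has 8 filled points below 0 and none above, and the class I and class II pathway lists have filled points on both sides.

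Per gene length, B2m was the most abundant member. In RPKM, the FVB medians were 831 for B2m, 409 for H2-D1, 155 for H2-K1, 125 for Cd74 and 75.2 for H2-Aa. H2-Ab1 (45.5), Psmb8 (14.2), Tap1 (9.00), Ciita (2.04) and H2-Eb1 (1.94) followed. In PyMT the medians were 163 for B2m and 161 for H2-D1, whose ranges overlapped, then 78.9 for Cd74, 73.4 for H2-K1, 52.2 for H2-Aa, 33.3 for H2-Ab1, 10.3 for Psmb8, 5.94 for Tap1, 2.59 for Ciita and 0.991 for H2-Eb1. B2m and H2-D1 were thus side by side in PyMT and apart in FVB, where the ranges (589 to 1208 for B2m and 314 to 599 for H2-D1) overlapped only at their ends.

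**Figure D5:**
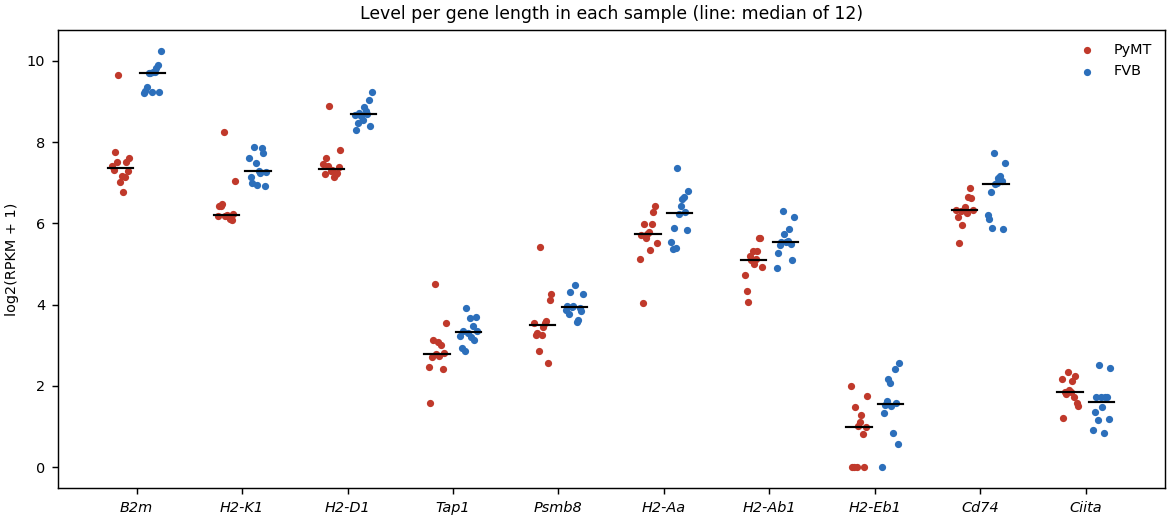
Level of each member (x axis) on the log2(RPKM + 1) scale (y axis) in each of 12 PyMT (red) and 12 FVB (blue) samples, with the median as a black line. The order of the medians runs from B2m down to H2-Eb1 in FVB, and in PyMT B2m and H2-D1 share the top.

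Markers of the cells that carry class II molecules were counted in the same samples. B cell markers were near 0, with a summed normalized count over 10 genes of 3.7 to 35.2 in PyMT samples against 7.56 to 72.6 in FVB samples. In PyMT 2 of the 10, Pax5 and Fcer2a, were at 0 throughout. For 10 T cell markers the sums were 0 to 159 in PyMT, with 58 to 257 in FVB. The 10 macrophage markers summed to 2763 to 5849 in PyMT and 3251 to 7464 in FVB. Over the 4 weeks 3 of them were lower in PyMT (Csf1r, Mrc1 and Cd163) and 1 was higher, with 5 of the 10 values above 0 and 5 below. Of all tested genes 27.5% were lower and 23.6% higher, so these counts were near or below the shares of all genes. None of the 4 general leukocyte markers was called. Of 6 tested dendritic cell markers Flt3, Zbtb46 and Clec9a were lower and Itgax was higher, beside the same shares of all genes. The part of these cells in the class II values was not tested.

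Across the 12 samples of each genotype, H2-Aa, Ciita and H2-K1 were each set against the mean log2 level of 5 marker lists, 30 relations in all, by two-sided permutation tests with 100000 resamples. In PyMT, H2-Aa against macrophage markers gave a positive value (Pearson r = 0.634, permutation p = 0.0238, adjusted p = 0.227; Spearman rho = 0.608, permutation p = 0.0402, adjusted p = 0.356), which failed the correction. Leaving out the 2 samples with the most extreme marker means gave r = 0.317. With the median over the markers in place of the mean it passed by Pearson's r (0.866, permutation p = 0.00378, adjusted p = 0.0378) and not by rho (0.615, permutation p = 0.0367, adjusted p = 0.204), and r was 0.371 without 2 samples. In FVB, Ciita and macrophage markers had r = 0.623 (permutation p = 0.0302, adjusted p = 0.227; rho = 0.636, permutation p = 0.0309, adjusted p = 0.356) and 0.490 without 2 samples. With library size only, Ciita and macrophage markers in FVB passed by rho (0.902, adjusted p = 0.0051) and not by r (0.748, adjusted p = 0.0728). H2-Aa and macrophage markers in FVB passed by rho there (0.811, adjusted p = 0.0254) and with the marker median (0.811, adjusted p = 0.0315), but not by r. With that median, Ciita and dendritic cell markers in PyMT passed by r (0.765, adjusted p = 0.0378) and not by rho. With size factors and the mean over the markers, 1 relation passed the correction. H2-K1 was lower in the FVB samples with more luminal epithelial marker RNA, with r = -0.919 (permutation p = 2e-05, adjusted p = 0.0006) and rho = -0.923 (permutation p = 8e-05, adjusted p = 0.0024), and r was -0.914 without 2 samples. With library size only it failed by r (-0.659, permutation p = 0.0188, adjusted p = 0.0804) and passed by rho (-0.804, permutation p = 0.00254, adjusted p = 0.0254). Of the 4 FVB samples with the most H2-K1, 3 were libraries with 11180 to 20060 CPM of Myh4. Without the 4 FVB libraries above 1000 CPM of Myh4, 8 samples gave r = -0.902 (exact permutation p = 0.00221, adjusted p = 0.0662) and rho = -0.833 (exact permutation p = 0.0154, adjusted p = 0.209), which failed the correction. In PyMT the same relation had r = 0.739 (permutation p = 0.0132, adjusted p = 0.198) and rho = 0.140 (permutation p = 0.666, adjusted p = 0.876), and r = 0.525 with the 2 most extreme left out. Each week holds 3 samples a genotype, too few for a correlation within weeks. The permutations ran over all weeks of a genotype and did not hold week. A change with age shared by a member and the markers can thus enter these values, and its part was not tested.

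The genes whose pattern over the 24 samples was most like that of the class I members were looked up among all tested genes, as a description with no test. Against the mean log2 level of the 5 class I members, Pearson's r was highest for Lgals3bp (0.94), Gbp2 (0.92), Nlrc5 (0.92), Gbp7 (0.90) and Parp12 (0.89). Without the PyMT library of week 8 replicate 2, r over the remaining samples of both genotypes ran from 0.87 (Parp12) to 0.94 (Lgals3bp). Within the 12 PyMT samples r ran from 0.78 (Gbp7) to 0.92 (Gbp2), and within the 12 FVB samples from 0.48 (Gbp7) to 0.84 (Lgals3bp). The r within PyMT include that library, which was high for the 5 class I members, Gbp2 and Nlrc5, and were not computed without it. Against the mean of H2-Aa, H2-Ab1, H2-Eb1 and Cd74 the highest were Vcam1 (0.79), Sirpa (0.79), Disp2 (0.77), Layn (0.77) and Renbp (0.75). All points share depth and packets of their libraries and the difference between genotypes.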

How the data were processed

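Total RNA of whole mammary tissue was sequenced after ribosomal depletion, 1 library from each of 24 mice, which were grouped by the genotype and week of their labels into 8 groups of 3. The authors used GSNAP to align the trimmed reads to mm9 and HTSeq to count reads by Ensembl gene, and their deposited counts are raw. GENCODE M1 gave symbols, exon lengths and mm9 coordinates for 37205 of 37991 genes. The members and all gene lists were chosen with earlier results of these data known.

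Counts were tested with edgeR 4.0.16 (TMM, quasi-likelihood, Benjamini-Hochberg over 14918 genes) in R 4.3.3. Weekly fits held 6 samples, the fit over the weeks held 24 with week as a factor, and tests between weeks used 8 groups. The SE is the log2 fold change over the square root of F. DESeq2 1.42.0 gave size factors and an alternative test, and limma 3.58.1 gave voom with sample weights. Summaries, permutation tests and plots used Python 3.11.15 (pandas 2.3.3, NumPy 2.4.6, SciPy 1.17.1, matplotlib 3.10.9), and 1 was added before log2. On simulated data, with 200 of 14918 genes changed 4-fold, the week 12 fit recovered 37.5%, the fit over the weeks 76.5% and the test between weeks 8 and 10 26.5%.

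Named were all members, up to 6 genes of each pathway list with the smallest adjusted p in the fit over the weeks, up to 3 markers of a list, and the 5 genes most like each class by Pearson's r. Genes outside this rule (H2-Q6, H2-T10, H2-DMa, H2-DMb2, Rfxank, Psmb9, Ifng, Myh4 and markers named as called) were chosen after their values were seen. Replicates are separate samples, none a copy of another: the chi-square per gene between replicates ran from 20.4 to 238 over 24 pairs. A count of 0 allows up to 3 counts, 0.222 to 0.430 CPM, for counting error only. The columns hold only these samples, and 141 of 143 listed genes were matched. Values of some listed genes are not reported here. Alternatives covered the test, scaling, filters, replicate block, packets, sample weights, a test against a 2-fold change and each replicate left out.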

Additional observations from a re-analysis of the deposited data

How the results depend on the processing

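Of the 10 members, the number called at week 6 (2) was 1 with library size only, 1 with voom and sample weights and 1 in the test against a 2-fold change, and 1 to 2 with a replicate left out, since H2-D1 lay at the fold limit. It was 1 without each of the 3 PyMT replicates and without FVB replicate 1. At week 8 (0) it was 2 with voom and sample weights (B2m and H2-D1) and 0 to 2 with a replicate left out, with 2 without PyMT replicate 2 and 1 without FVB replicate 1. At week 12 (2) it was 1 in the test against a 2-fold change and 2 to 3 with a replicate left out, and at week 10 (3) it was 3 with any replicate left out and 2 without H2-K1 in the test against a 2-fold change and with library size only. Over the 4 weeks (6) it ran from 6 to 8 with a replicate left out and was 4 with library size only (B2m, H2-K1 and H2-D1 lower, Ciita higher), where Psmb8 turned from -0.25 to 0.042 (adjusted p = 0.902). For PyMT week 12 against week 6 (0), DESeq2 gave 1. The number of relations with markers that passed (1 by Pearson's r and 1 by Spearman's rho) was 0 and 3 with library size only, 3 and 2 with the median over markers and, added after seeing the data, 0 and 0 without the Myh4-rich libraries. B2m kept its call at weeks 6, 10 and 12 in all 16 alternatives of each, and over the weeks in all 34. The causes were not tested.

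With the replicate block, the members called over the 4 weeks were 6, and the block changed no member's call in any of the 9 comparisons. The labels do not say whether the numbers pair the samples. Deviations of same-numbered samples from their group means correlated by -0.0251 to 0.177 over 12 pairs, above 0.1 in 4. Samples of unlike number were not compared in this way, so these values cannot decide on a pairing. H2-Eb1 lay near its floor, with 389 counts over all samples against 13959 for H2-Ab1 in the same libraries, and why was not tested. Packets may limit low counts further. Of alternatives added after seeing the data, leaving out the Myh4-rich libraries ended the H2-K1 call.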

Other observations

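The counts of the light chain were set against those of its heavy chains in the same library, a ratio that no scaling between libraries can move. It was chosen after the values had been seen, when B2m already showed the larger difference. Its p is therefore no separate evidence, and other gene ratios were not counted beside it. B2m over the sum of H2-K1 and H2-D1, in deposited counts, ran from 0.172 to 0.342 in PyMT (median 0.220, n = 12) and from 0.325 to 0.533 in FVB (median 0.450, n = 12). PyMT minus FVB, the mean log2 ratio came to -0.97, with a p of 1e-05, the lowest that 100000 resamples of a two-sided permutation test allow. In each week every PyMT sample lay below every FVB sample, the PyMT sample of week 8 replicate 2 included, which at 0.342 was the highest of PyMT. Without it PyMT ran from 0.172 to 0.275, no PyMT sample reached the lowest FVB ratio of 0.325, and the difference was -1.03 (permutation p = 1e-05). The ratio shows that B2m and the heavy chains differed unequally between the genotypes and not which of them changed. H2-K1 and H2-D1 have close copies, so the counting of their reads bears on its level.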
